A study of Mus musculus with 11 samples.

Results

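The class I antigen presentation genes examined here are 10 of the 54232 genes in a count table of 11 mouse pancreatic tumours, and were chosen by name. They are the classical class I heavy chains H2-K1 and H2-D1 with their light chain B2m, the peptide transporter genes Tap1 and Tap2 with tapasin (Tapbp), the immunoproteasome catalytic subunits Psmb8, Psmb9 and Psmb10, and the class I transactivator Nlrc5. All 10 had enough counts to be tested, with between 301 and 102668 counts in a tumour. RNA was sequenced in bulk from 6 tumours grown in PKN2KO hosts (KO, replicates A to F) and 5 grown in wild-type hosts (WT, replicates A to E). The hosts were adult female C57BL/6 mice that carried 1 copy of RosaCreERT2, a tamoxifen-activated Cre recombinase expressed from a ubiquitous locus. KO hosts were PKN2 fl/fl and WT hosts were PKN2 +/+, and both received the same tamoxifen treatment before TB32048 cells were placed in the pancreas. TB32048 is a single carcinoma line from a female KPC mouse, which is not of the floxed strain. Deletion was therefore confined to cells of the host but not to any host cell type. The labels give each tumour a letter and do not tie it to an animal, so p-values below measure the spread between these tumours.

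MHC class I molecules display peptides from proteins made inside a cell, and CD8 T cells read them. The proteasome cuts the proteins, TAP moves the fragments into the endoplasmic reticulum, tapasin holds empty class I molecules beside TAP, and a heavy chain with its peptide and beta-2-microglobulin then travels to the surface. Interferon gamma induces most of these genes, including 3 subunits that replace the constitutive catalytic subunits to form the immunoproteasome, and NLRC5 acts at a shared promoter module of class I genes. Tumour cells and infiltrating leukocytes both express the pathway. A bulk tumour piece cannot tell fewer cells of a type from less RNA per cell.

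Library totals ranged from 16294128 to 31121422 counts, so that 3 counts corresponded to between 0.0964 and 0.184 CPM of those totals. CPM values below are a gene's counts over the library total after TMM scaling, brought to a fixed total for all tumours. The targeted gene does not separate these libraries. Pkn2 (ENSMUSG00000004591, chr3:142790902-142882004, minus strand) lay between 80.1 and 108 CPM in KO tumours and between 62.9 and 138 CPM in WT tumours (log2 fold change -0.002, SE 0.21; edgeR, adjusted p = 0.996). TB32048 cells were part of the tumours, and their share of the Pkn2 counts was not tested. Counts were per gene, and single exons were not examined. Among the libraries, WT A, B and C stood apart: their CPM deviations fell with gene length (Spearman rho across genes -0.50, -0.45 and -0.17), whereas rho in the other 8 libraries lay between 0.10 and 0.37. WT B also had 6.39% of its counts in ribosomal RNA genes, against 0.241 to 1.40% in the other 10. Of the marker lists, T and NK cell genes summed to between 65.2 (KO D) and 565 CPM (KO F) in KO tumours and between 200 and 584 CPM in WT tumours (highest in WT A), and 0 of 6 passed an unadjusted p of 0.05 in either direction.

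Promoter sequences are shown first because a pair of short motifs stood at the same spacing in the 3 genes whose products form the complete class I molecule. RefSeq windows of 300 bases around the start site (GRCm38.p6) were available for 8 of the 10 members. Tap2 and Nlrc5 had none in the table used. Of the 8 windows 3, those of H2-K1, H2-D1 and B2m, held TGACG followed after 20 bases by ATTGG, the reverse complement of CCAAT. That spacing occurred in 31 of 32851 windows of the same length genome-wide (0.0944%) and in 4 of the 47 member and pathway genes with a window, the remaining gene being H2-M3, a non-classical heavy chain. The pair was chosen for display after the sequences were seen. It spans 30 bases and lay, counted from the RefSeq start site, at -41 to -12 in H2-K1, -101 to -72 in H2-D1, -78 to -49 in B2m and -46 to -17 in H2-M3. From a second RefSeq start of H2-K1 it began at -55. The GENCODE M21 model of H2-D1 starts at 35262730, so the H2-D1 stretches printed below lie inside that model. In the next lines capitals mark TGACG and ATTGG, on the strand of the gene.
H2-K1, chr17:34000359-34000388, minus strand: TGACGcgcagtcagctcttacccccATTGG
H2-D1, chr17:35262993-35263022, plus strand: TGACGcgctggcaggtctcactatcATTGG
B2m, chr2:122147609-122147638, plus strand: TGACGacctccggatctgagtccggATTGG
H2-M3, chr17:37270188-37270217, plus strand: TGACGcttctccaattcccattctaATTGG

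H2-K1 and H2-D1 also shared the kappa B letters GGGNNTTCC, present in 5.82% of all windows. B2m had the interferon-response letters GAAANNGAA, present in 8.56%. Both strands were searched, for exact matches only. An element that differs from these letters would be missed, so the lack of a match is not the lack of an interferon-response element. The next lines show these letters in capitals with their surroundings.
H2-K1, chr17:34000440-34000468, minus strand: gcccagggctGGGGATTCCccatctccac
H2-D1, chr17:35262913-35262941, plus strand: gcccagggctGGGGATTCCccatctcctc
B2m, chr2:122147538-122147566, plus strand: ataagaacatGAAACTGAAaatgggaaag
The gamma-activated letters TTCNNNGAA were found in Psmb8 (8.3% of all windows), CCAAT in 6 of 8 members (37.4%) and TGACG in 5 of 8 (20.8%). Tap1 and Psmb9 lie on opposite strands of chromosome 17. Their RefSeq start sites, 34187556 and 34187330, leave 225 bases between them, whereas the longer GENCODE M21 gene models, used for the coordinates below, overlap by 212 bases. A match is a description of letters and not of a bound site.

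Genotype did not separate any of the 10 genes. None passed an adjusted p of 0.05, and 0 passed an unadjusted p of 0.05 in either direction; by DESeq2 the count at an unadjusted p was 1 (Tap1) and at an adjusted p 0. Among all 16536 tested genes 0.0181% passed the adjusted threshold, 8.57% were higher and 15.5% lower in KO at an unadjusted p of 0.05, and 3.6% had no overlap in CPM between the genotypes. No member had groups that did not overlap. The fitted log2 fold changes of the members, KO over WT, were positive in 6 and negative in 4, with a median of 0.37 beside -0.03 over all tested genes. The heavy chains, both TAP subunits, Tapbp and Nlrc5 had positive values, and B2m and the 3 immunoproteasome subunits negative ones; whether these sets differ was not tested.

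**Figure D1:**
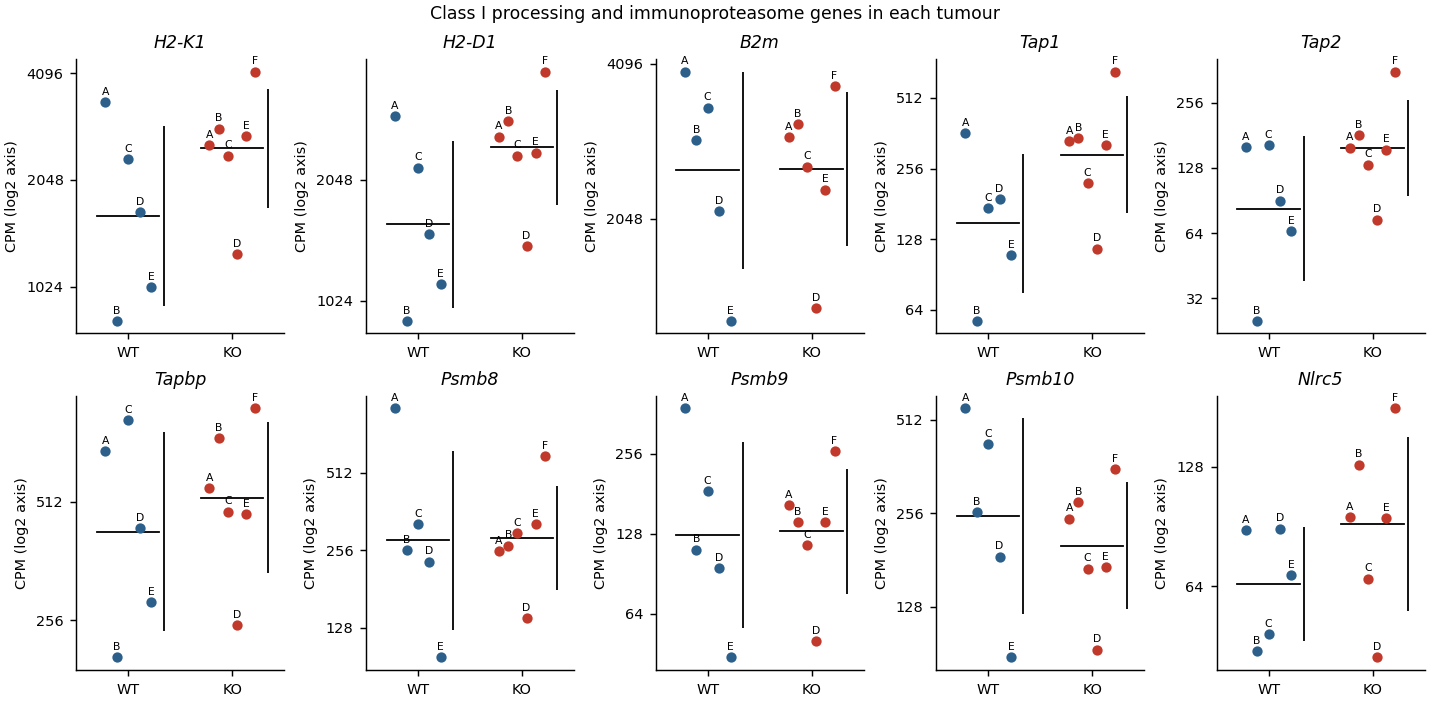
CPM of the 10 genes in each tumour on log2 axes, with WT tumours in blue and KO tumours in red and the replicate letter above each point. Horizontal lines are means of log2 CPM and vertical bars 1 SD on that scale (6 KO, 5 WT); the genotypes overlap in every panel, and KO F is the highest and KO D the lowest KO tumour throughout.

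H2-K1 (ENSMUSG00000061232, chr17:33996017-34000347, minus strand) encodes a heavy chain that binds peptide. It ranged from 1267 to 4137 CPM in KO tumours with a median of 2647 CPM, and stood at 3394, 819, 2339, 1660 and 1021 CPM in WT A to E. Only KO F exceeded the highest WT tumour, and only WT B and WT E fell below the lowest KO tumour. Its log2 fold change was 0.53 (SE 0.38, edgeR, adjusted p = 0.409). H2-D1 (ENSMUSG00000073411, chr17:35262730-35267499, plus strand), the other classical heavy chain of this strain, ranged from 1399 to 3801 CPM in KO tumours with a median of 2503 CPM, and stood at 2947, 911, 2193, 1497 and 1127 CPM in WT A to E. Its groups overlapped in the same way, with KO F above and WT B and WT E below the other genotype. The log2 fold change was 0.57 (SE 0.33, edgeR, adjusted p = 0.306). Of the 75-base stretches of the transcripts, 1.55% in H2-K1 and 6.9% in H2-D1 also occur in other genes, mostly other class I genes. Only uniquely aligned reads were counted. The study's reads were paired and longer than 75 bases, and how many were lost to shared sequence was not tested.

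B2m (ENSMUSG00000060802, chr2:122147686-122153083, plus strand), the light chain that every class I molecule carries, was nearly level between genotypes. It ranged from 1370 to 3701 CPM in KO tumours with a median of 2770 CPM and stood at 3956, 2907, 3366, 2122 and 1296 CPM in WT A to E. WT B, the lowest of all tumours for both heavy chains, lay at the WT median for B2m. The fitted log2 fold change was -0.03 (SE 0.31, edgeR, adjusted p = 0.967), and its sign turned in 8 of 19 alternative settings, reaching 0.44 with a correction for gene length.

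Among the members Tap1 and Tap2 had the largest fitted fold changes in the main fit. In size this order did not hold when ribosomal RNA share was a covariate, or without KO F or WT E. Without KO F, Psmb10 was at -0.66 beside 0.59 for Tap1 and 0.48 for Tap2. Without WT E it was at -0.70 beside 0.77 and 0.69. Tap1 (ENSMUSG00000037321, chr17:34187553-34197225, plus strand) ranged from 117 to 664 CPM in KO tumours with a median of 329 CPM, and stood at 363, 57.4, 174, 189 and 109 CPM in WT A to E. KO F was above all WT tumours and WT B and WT E were below all KO tumours. The log2 fold change was 0.91 (SE 0.46, edgeR, unadjusted p = 0.0727, adjusted p = 0.248). Without WT A it was 1.34 (unadjusted p = 0.0118), and 0.37 when ribosomal RNA share was a covariate. Tap2 (ENSMUSG00000024339, chr17:34203527-34216321, plus strand) ranged from 73.8 to 357 CPM in KO tumours with a median of 157 CPM, and stood at 160, 25.1, 163, 90.4 and 65.5 CPM in WT A to E. KO B and KO F exceeded every WT tumour. Fitted on the log2 scale, the change was 0.81 (SE 0.46, edgeR, adjusted p = 0.293). WT B was the lowest tumour for both subunits, and Tap2 had the widest spread of any member, 14.2-fold between the highest and lowest tumour.

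Tapbp (ENSMUSG00000024308, chr17:33915899-33929292, plus strand), which encodes tapasin, ranged from 248 to 888 CPM in KO tumours with a median of 519 CPM. The WT tumours A to E stood at 690, 206, 826, 440 and 284 CPM, so that WT A and WT C lay among the upper KO tumours. Its log2 fold change was 0.21 (SE 0.38, edgeR, adjusted p = 0.759), and it turned to -0.08 when ribosomal RNA share was a covariate. The annotated gene shares 3422 bases on the same strand with Zbtb22, present at 32.8 to 47.5 CPM, and how the authors' counting assigned reads there was not tested.

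Among the immunoproteasome subunits, Psmb8 (ENSMUSG00000024338, chr17:34197721-34201454, plus strand) encodes the subunit with chymotrypsin-like activity. It ranged from 140 to 595 CPM in KO tumours with a median of 283 CPM and stood at 913, 257, 323, 232 and 98.3 CPM in WT A to E. WT A was the highest of the 11 tumours and WT E the lowest. The log2 fold change was -0.22 (SE 0.48, edgeR, adjusted p = 0.805), and it turned to 0.51 with WT A and WT B left out together. Psmb9 (ENSMUSG00000096727, chr17:34181987-34187764, minus strand), the caspase-like position, ranged from 50.3 to 262 CPM in KO tumours with a median of 142 CPM. In WT A to E it stood at 381, 112, 186, 95.0 and 43.7 CPM, again with the extremes in WT A and WT E. edgeR put the log2 fold change at -0.16 (SE 0.49, edgeR, adjusted p = 0.863), and without WT A it was 0.42. Psmb10 (ENSMUSG00000031897, chr8:105935735-105938444, minus strand), the trypsin-like position, ranged from 92.9 to 354 CPM in KO tumours with a median of 209 CPM and stood at 557, 257, 426, 185 and 87.7 CPM in WT A to E. WT A and WT C exceeded every KO tumour. The log2 fold change was -0.47 (SE 0.43, edgeR, adjusted p = 0.512), and -0.11 with WT A and WT B left out.

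Nlrc5 (ENSMUSG00000074151, chr8:94434356-94527272, plus strand), the coactivator of class I genes, ranged from 42.3 to 180 CPM in KO tumours with a median of 95.2 CPM. In WT A to E it stood at 88.5, 43.9, 48.4, 89.3 and 68.0 CPM. 4 KO tumours exceeded the highest WT tumour, while KO D lay below the lowest. The corresponding log2 fold change was 0.59 (SE 0.33, edgeR, unadjusted p = 0.0998, adjusted p = 0.291), and 0.17 when ribosomal RNA share was a covariate. A neighbour, the lincRNA 9330175E14Rik on the opposite strand, lay at 3.0 to 17.9 CPM.

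Levels of different genes were compared only per kilobase of exon. B2m was by far the highest, at 3115 CPM per kilobase in KO and 3173 in WT tumours (group means), followed by H2-D1 at 997 and 673 and H2-K1 at 905 and 629. In KO tumours Tapbp (156), Psmb10 (128), Psmb8 (92.5), Tap1 (61.1), Tap2 (46.7) and Psmb9 (39.9) came next. In WT tumours the order was Psmb10 (178), Tapbp (135), Psmb8 (108), Psmb9 (44.6), Tap1 (32.6) and Tap2 (26.7). Nlrc5 was the lowest in both, at 12.0 and 7.96. All annotated exons were used, which span 3660, 5476 and 3781 bases for Psmb9, Tap1 and Tap2. Their longest coding transcripts have 1352, 2953 and 3442 bases. For H2-D1 and H2-K1 the exons span 2579 and 2938 bases and the transcripts 2102 and 1619. Orders of neighbours therefore depend on the length used. Some neighbours did not keep their order in each tumour: H2-D1 was above H2-K1 in 9 of 11 tumours, Tapbp above Psmb10 in 8 and Tap2 above Psmb9 in 6. These orders were not tested.

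**Figure D2:**
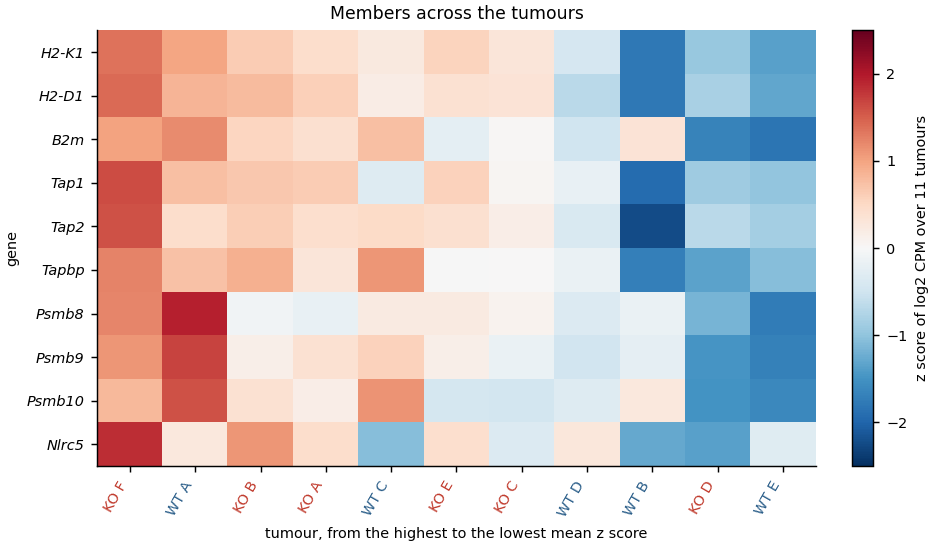
z score of log2 CPM for each of the 10 genes (rows) in each tumour (columns), computed over the 11 tumours, with tumours ordered from the highest mean z score (KO F) to the lowest (WT E). Red is above and blue below the gene's mean; KO names are in red and WT names in blue, and the genotypes are interleaved along the axis.

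The members differed widely among tumours of the same genotype, and mostly moved together. KO F had a mean z score of 1.32 over the members and was the highest tumour for 6 of them, and WT A had 1.04 and was highest for the other 4 (B2m, Psmb8, Psmb9 and Psmb10). At the low end, WT E (-1.27), KO D (-1.19) and WT B (-1.05) held the lowest value of 4, 1 and 5 members. Over the 45 pairs of members the median Pearson r of log2 CPM over 11 tumours was 0.74, from 0.33 for Psmb10 with Nlrc5 to 0.99 for H2-K1 with H2-D1. H2-K1, H2-D1, Tap1 and Tap2 correlated with a median of 0.96 among themselves, and Psmb8, Psmb9 and Psmb10 with 0.94, whereas the median between these groups was 0.63. B2m followed the immunoproteasome subunits (median 0.95) more closely than the heavy chains it pairs with (median 0.67). WT B shows this split most plainly, with low heavy chain and TAP values beside B2m and Psmb10 values near or above the KO median. These r are descriptions, since all genes of a tumour share its library, and WT B differs in length trend and ribosomal share.

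Ratios inside a tumour were compared next, since they do not depend on how libraries are scaled. The heavy chains were higher relative to B2m in KO than in WT tumours. H2-K1 over B2m, in counts, ranged from 0.87 to 1.17 in KO tumours with a median of 0.925, and was 0.858, 0.282, 0.695, 0.782 and 0.788 in WT A to E. All 6 KO tumours lay above all 5 WT tumours. The difference was 0.63 on the log2 scale, a 1.54-fold higher ratio (exact permutation test, two-sided, p = 0.00216, the smallest that 462 splits allow; adjusted over 6 ratios, p = 0.00649). H2-D1 over B2m ranged from 0.887 to 1.03 in KO tumours with a median of 0.969, and was 0.745, 0.313, 0.652, 0.705 and 0.869 in WT A to E. Again 6 of 6 KO tumours were above the highest WT tumour. The difference was also 0.63, a 1.55-fold higher ratio (exact permutation test, two-sided, p = 0.00216, adjusted p = 0.00649). WT B carried much of the size: without it the differences fell to 0.33 and 0.38 (exact permutation test, adjusted p = 0.0286 for both). All annotated exons of B2m span 860 bases, against 2938 for H2-K1 and 2579 for H2-D1. Their longest coding transcripts have 860, 1619 and 2102 bases. The libraries differ in their trend with length, taken over all annotated exons. With that trend removed from each library, the differences were 0.30 for H2-K1 (exact permutation test, p = 0.173, adjusted p = 0.494) and 0.34 for H2-D1 (p = 0.0173, adjusted p = 0.104), so that neither passed.

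**Figure D3:**
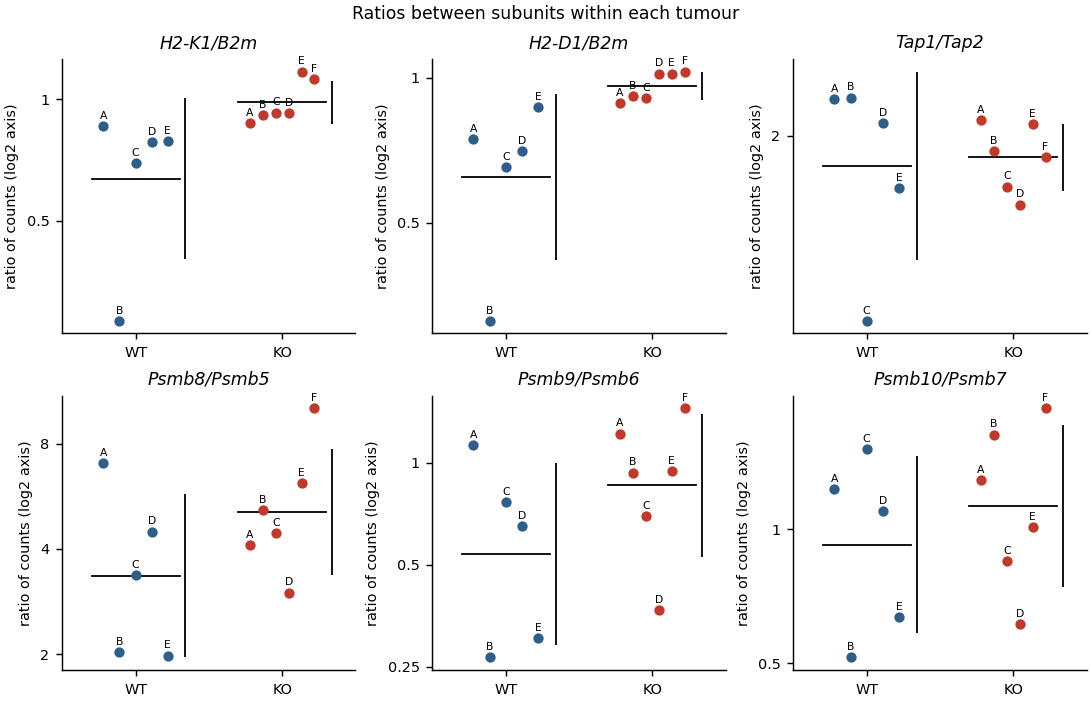
Ratios of counts within each tumour for 6 pairs of genes, on log2 axes, with WT in blue and KO in red and replicate letters above the points. Lines are means and bars 1 SD of the log2 ratio; H2-K1/B2m and H2-D1/B2m show all 6 KO tumours above all 5 WT tumours, with WT B far below, and the other 4 panels overlap.

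The balance of the TAP subunits did not differ detectably between genotypes. Tap1 over Tap2 ranged from 1.58 to 2.11 in KO tumours with a median of 1.88, and was 2.27, 2.28, 1.06, 2.09 and 1.67 in WT A to E. The difference was 0.04 on the log2 scale (exact permutation test, adjusted p = 0.877) and changed to -0.15 without WT C, the tumour with the lowest ratio. Each immunoproteasome subunit was also set against the constitutive subunit whose place it takes. Psmb8 over Psmb5 ranged from 3 to 10.1 in KO tumours and from 1.98 to 7.04 in WT tumours, a difference of 0.60 on the log2 scale (exact permutation test, p = 0.184, adjusted p = 0.279). Psmb9 over Psmb6 ranged from 0.367 to 1.45 in KO and from 0.266 to 1.13 in WT tumours, a difference of 0.67 (exact permutation test, p = 0.186, adjusted p = 0.279). Psmb10 over Psmb7 ranged from 0.612 to 1.87 and from 0.515 to 1.51, a difference of 0.29 (exact permutation test, p = 0.463, adjusted p = 0.556). With each library's length trend removed, the differences were 0.235, 0.447 and 0.519 (exact permutation test, adjusted p = 0.751, 0.588 and 0.494). Both sides of these ratios had negative fitted log2 fold changes: -0.22, -0.16 and -0.47 for Psmb8, Psmb9 and Psmb10, and -0.68, -0.75 and -0.78 for Psmb5, Psmb6 and Psmb7. KO F had the highest and KO D the lowest ratio of the KO tumours for all 3 pairs.

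Across tumours Pearson r of Nlrc5 with the heavy chains, TAP and Tapbp passed, and with the other 4 members did not; by Spearman's rho Tap2 and Tapbp did not pass either. Pearson r with Nlrc5 over 11 tumours was 0.872 for Tap1 (permutation test, p = 0.0006, adjusted over 9 relations p = 0.0054; Spearman rho 0.809, permutation p = 0.00407, adjusted p = 0.0257). It was 0.747 for Tap2, 0.743 for H2-D1 and 0.742 for H2-K1 (permutation test, adjusted p = 0.0214 for each; rho 0.673, 0.773 and 0.764, with permutation p = 0.0281, 0.00747 and 0.00857 and adjusted p = 0.0633, 0.0257 and 0.0257). For Tapbp r was 0.67 (permutation test, adjusted p = 0.0449; rho 0.609, permutation p = 0.0517, adjusted p = 0.0931). The remaining members did not pass, with r of 0.504 for Psmb9, 0.468 for Psmb8, 0.429 for B2m and 0.331 for Psmb10 (permutation test, p = 0.114, 0.147, 0.189 and 0.321, and rho of 0.464, 0.345, 0.382 and 0.3). Without KO D and KO F, the tumours farthest from the median of Nlrc5, r was 0.806 for Tap1, between 0.616 and 0.625 for Tap2, H2-D1 and H2-K1, and 0.463 for Tapbp, while B2m (0.037) and Psmb10 (-0.03) showed no relation. Single tumours decided most of these calls: adjusted p rose to 0.102 for H2-K1, H2-D1 and Tap2 without KO F and to 0.0735 without WT B (permutation test), and Tapbp passed only when WT C was left out or no tumour was. Whether r differs between members was not tested.

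**Figure D4:**
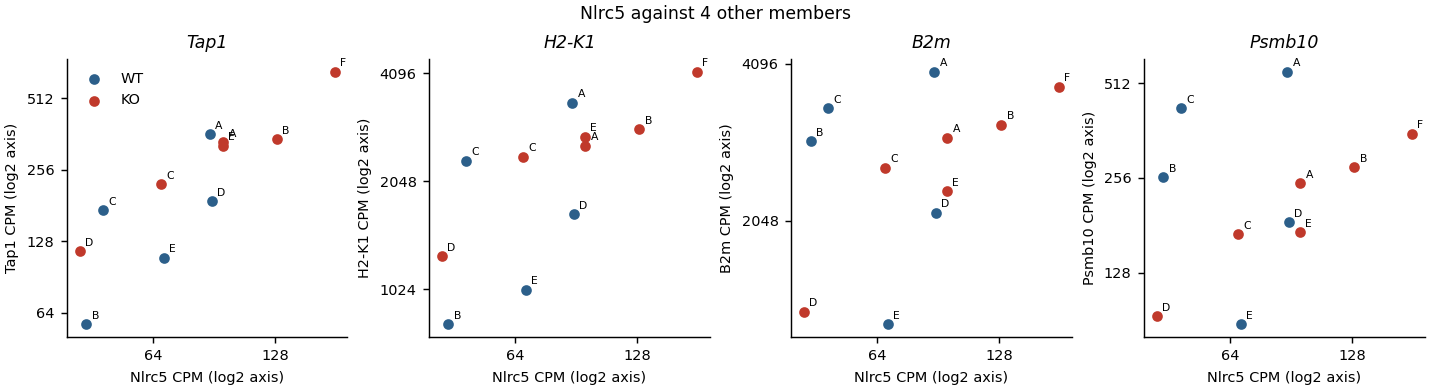
Nlrc5 CPM (horizontal, log2 axis) against Tap1, H2-K1, B2m and Psmb10 CPM (vertical, log2 axes), 1 point per tumour with its letter, WT in blue and KO in red. KO tumours lie along a line in all 4 panels, and WT A, B and C sit above it for B2m and Psmb10.

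Within the 6 KO tumours alone, r with Nlrc5 lay between 0.859 (Psmb8, exact permutation test, p = 0.05) and 0.978 (Tap1, p = 0.00139) for the 9 other members; no r was computed over the 5 WT tumours. There B2m stood at 2907 and 3366 CPM in WT B and WT C, which had the lowest Nlrc5, and at 2122 CPM in WT D, which had the highest, so that these WT tumours did not follow the order seen in KO tumours. With each library's length trend removed, r over 11 tumours was 0.791 for B2m, 0.707 for Psmb8, 0.725 for Psmb9 and 0.716 for Psmb10 (permutation test, adjusted p from 0.0177 to 0.0195), so that which members passed depends on that trend. The members' mean z score was also set against 14842 genes outside the member and pathway lists, so other class I pathway genes could not appear. The 10 with the highest r were Cxcl10 (0.976), Cd74 (0.965), H2-Ab1 (0.962), Dbnl (0.961), H2-DMb1 (0.96), Ubd and Ifi47 (0.958 each), Gbp4 (0.955), Cxcl11 (0.953) and Parp12 (0.952). Cxcl10 and Cxcl11 encode interferon-induced chemokines for T cells, Cd74, H2-Ab1 and H2-DMb1 belong to class II presentation, and Gbp4 and Ifi47 encode interferon-induced GTPases. Their adjusted p between genotypes (edgeR) lay between 0.334 and 0.886.

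The other class I pathway genes were taken from 5 lists holding 47 genes, of which 46 were tested; H2-Q2 was too low. None passed an adjusted p of 0.05, and at an unadjusted p of 0.05, 4 were higher and 5 lower in KO, beside 8.57% and 15.5% of all tested genes. The median log2 fold change was 0.12. Of the constitutive catalytic subunits 3 of 3 were lower at the unadjusted threshold, beside 15.5% of all genes. Psmb5, the chymotrypsin-like subunit, ranged from 46.8 to 67.3 CPM in KO tumours and stood at 130, 127, 96.2, 51.7 and 49.7 CPM in WT A to E. WT A, B and C lay above all KO tumours and WT D and E among them. The log2 fold change was -0.68 (SE 0.26, edgeR, unadjusted p = 0.0187, adjusted p = 0.137), though 40% of the 75-base stretches of Psmb5 occur elsewhere, in Gm3375. Psmb6, the caspase-like subunit, ranged from 135 to 181 CPM in KO tumours and stood at 337, 420, 243, 146 and 144 CPM in WT A to E, which edgeR fitted as -0.75 in log2 (SE 0.26, adjusted p = 0.127). For Psmb7, the trypsin-like subunit, the KO range was 152 to 200 CPM and WT A to E stood at 452, 499.7, 282, 168 and 138 CPM, fitted as -0.78 in log2 (SE 0.30, edgeR, adjusted p = 0.145). WT A, B and C exceeded all KO tumours for both, and those are the libraries that stand apart in length trend. With WT A and WT B left out, Psmb5, Psmb6 and Psmb7 were at -0.23, -0.22 and -0.14 (edgeR, unadjusted p = 0.314, 0.268 and 0.511), and when ribosomal RNA share was a covariate at -0.20, -0.21 and -0.12 (unadjusted p = 0.399, 0.365 and 0.631), so that none passed. With a gene length correction they were at -0.17, -0.41 and -0.72 (edgeR, unadjusted p = 0.218, 0.0297 and 0.0228). That correction used all annotated exons, which span 899, 1872 and 3421 bases. The longest coding transcripts of these genes have 899, 798 and 1160 bases, and a correction by those lengths was not tested.

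Among the non-classical heavy chains 1 of 12 tested passed an unadjusted p of 0.05, against 8.57% of all genes. H2-T24, a class I gene of the H2-T region, ranged from 5.04 to 17.2 CPM in KO tumours with a median of 9.11 CPM, and stood at 5.73, 1.42, 4.42, 4.03 and 3.96 CPM in WT A to E. 5 of the 6 KO tumours exceeded the highest WT tumour. For H2-T24 the log2 fold change was 1.44 (SE 0.39, edgeR, unadjusted p = 0.00278, adjusted p = 0.0928), while DESeq2 gave an adjusted p of 0.00802. H2-Q4 was at 0.77 (SE 0.37, edgeR, adjusted p = 0.224) and Mr1, which presents vitamin metabolites to MAIT cells, at 0.38 (SE 0.28, adjusted p = 0.409). H2-Q6, H2-Q7 and H2-T22 share between 17.9 and 26.1% of their 75-base stretches with relatives, and the effect on their counts was not tested. H2-T24 was not examined for shared sequence, and its lowest count in a tumour was 17.

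In the endoplasmic reticulum, 1 of 5 chaperone and trimming genes passed the unadjusted threshold, higher in KO, beside 8.57% of all genes. Erap1, the aminopeptidase that trims peptides to class I length, ranged from 86.6 to 199 CPM in KO tumours with a median of 149 CPM and stood at 62.2, 21.4, 80.1, 128 and 83.5 CPM in WT A to E. 4 KO tumours exceeded every WT tumour. For Erap1 the log2 fold change was 0.95 (SE 0.35, edgeR, unadjusted p = 0.0181, adjusted p = 0.136). Pdia3, a disulphide isomerase of the loading complex, was at 0.29 (adjusted p = 0.338) and Tapbpl, a tapasin relative, at 0.32 (adjusted p = 0.568). Of 9 peptide supply genes 1 passed, lower in KO, beside 15.5% of all genes: Thop1, a peptidase that destroys peptides in the cytosol, at -0.33 (SE 0.14, edgeR, unadjusted p = 0.0392, adjusted p = 0.186), with 4 of 6 KO tumours below all WT tumours. Lap3 was at 0.46 (adjusted p = 0.354) and Tpp2 at 0.30 (adjusted p = 0.363).

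Of 17 regulators, 2 were higher and 1 lower at the unadjusted threshold, beside 8.57% and 15.5% of all genes. Rfxank, a subunit of the RFX complex that binds class I and class II promoters, ranged from 10.9 to 16.4 CPM in KO tumours and stood at 19.3, 31.6, 19.3, 20.2 and 14.9 CPM in WT A to E. Its log2 fold change was -0.66 (SE 0.20, edgeR, unadjusted p = 0.00645, adjusted p = 0.105), with 4 of 6 KO tumours below all WT tumours; DESeq2 gave an adjusted p of 0.0433. Jak1, a kinase of the interferon receptors, was at 0.60 (SE 0.22, edgeR, unadjusted p = 0.0173, adjusted p = 0.133), with 153.6 to 209 CPM in KO tumours and 95.4, 69.3, 96.8, 160 and 168 CPM in WT A to E. Ifngr1, the ligand-binding chain of the interferon gamma receptor, was at 0.46 (SE 0.21, edgeR, unadjusted p = 0.0492, adjusted p = 0.206). Neither Ifng (0.19, adjusted p = 0.752) nor Irf1 (0.34, adjusted p = 0.595) passed, both by edgeR. When ribosomal RNA share was a covariate, 0 pathway genes were higher and 1 lower at an unadjusted p of 0.05, beside 722 and 748 of all 16536 genes.

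**Figure D5:**
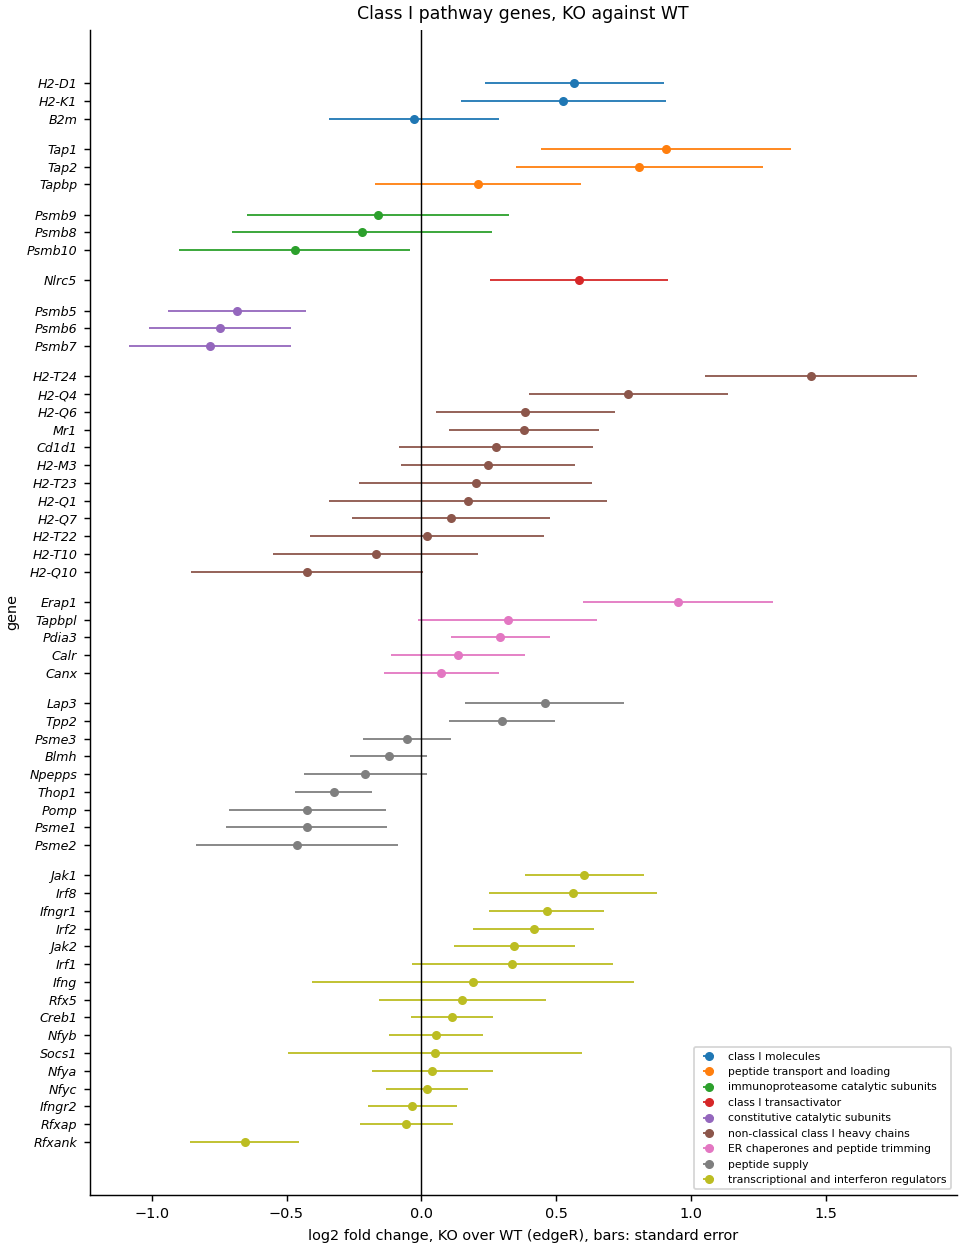
Log2 fold change, KO over WT, of the 10 members and of the tested pathway genes, 1 regulator left out, from the edgeR fit, grouped by role and coloured by list, with bars of 1 standard error. The constitutive subunits lie left of zero and H2-T24 and Erap1 furthest to the right.

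Marker sums of other cell types varied between tumours, and only the B cell sums did not overlap between genotypes. B cell marker sums were 55.2 to 133 CPM in KO and 14.9 to 50.2 CPM in WT tumours, with 6 of 6 markers higher at an unadjusted p of 0.05. Neutrophil markers summed to 268 to 2234 CPM in KO and 157 to 1006 CPM in WT tumours (4 of 6 higher), and macrophage markers to 1638 to 2957 and 1232 to 2164 CPM (2 of 6 higher). Epithelial markers summed to 2657 to 5442 CPM in KO and 3086 to 9254 CPM in WT tumours (3 of 6 lower), highest in WT A and lowest in KO F. Endothelial markers summed to 153 to 227 and 111 to 220 CPM (1 of 6 lower), while dendritic cell markers (41.2 to 125 and 45.5 to 80.1 CPM) and fibroblast markers (4271 to 9118 and 2278 to 9153 CPM) had 0 of 6 past that threshold. Acinar markers lay at up to 642 CPM in KO E and 1857 CPM in WT E, at 169 CPM in WT A and 14.0 CPM in WT B, and between 0.417 and 5.72 CPM in the other 7 tumours, with 4 of 6 at 0 in some tumour. No marker passed an adjusted p of 0.05. At the unadjusted threshold 8.57% of all tested genes were higher and 15.5% lower in KO. KO F, the tumour with the highest members, also had the highest macrophage and dendritic cell sums, and KO D, the KO tumour with the lowest members, the lowest T and NK cell and dendritic cell sums; their part in the members' levels was not tested.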

How the data were processed

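RNA was sequenced from 11 tumours with a directional library kit. Per the study's methods and labels, reads were demultiplexed with bcl2fastq (2.19), trimmed with Trimmomatic, aligned to GRCm38 with HISAT2 (2.1.0) and counted over exons with HTSeq (0.11.2), keeping uniquely aligned reads. The authors deposited raw counts per gene and a normalised signal equal to the raw count divided by 1 size factor per tumour. Groups came from the sample titles. Of 54232 identifiers 54165 matched GENCODE M21. Counts were tested with the edgeR (4.0.16, R 4.3.3) quasi-likelihood F-test, TMM factors, filterByExpr and Benjamini-Hochberg adjustment over 16536 genes. Within-tumour ratios used log2 of counts plus 0.5 and exact two-sided permutation of the difference in means. Relations with Nlrc5 used log2 CPM (prior count 2) and 100000 permutations. The script steps were tested on simulated data. Alternatives were DESeq2 (1.42.0), other size factors, filters and covariates, a gene length correction, a replicate block, and leaving out tumours.

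Members, lists and tests were chosen with earlier results of these data known. Named genes were all members, Psmb5, Psmb6 and Psmb7, and the 3 smallest p in each other list. Also named were the 10 genes most like the members' mean z score, drawn from those above 1 CPM outside the member and pathway lists. Ifng, Irf1, H2-Q6, H2-Q7 and H2-T22 were added after their values were seen. The CPM given for 3 counts covers counting error only, since reads carried no molecular identifiers; SE and SD cover the spread between tumours. The labels give no sequencing batch. The values of 1 listed regulator are not reported here.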

Additional observations from a re-analysis of the deposited data

Results flagged for a closer look

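2 results of 38 groups examined stood out by Dixon's test for a single distant sample, and chance gives about 1.9 such groups. In both it was the same tumour: WT B had a log2 ratio of H2-K1 to B2m of -1.83, when the other 4 WT tumours lay between -0.53 and -0.22 (gap over range 0.811). Its log2 ratio of H2-D1 to B2m was -1.67, when the others lay between -0.62 and -0.20 (0.717). WT B is also the shallowest library (16294128 counts) and has the highest ribosomal RNA share (6.39%), and the part of either in these ratios was not tested.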

How the results depend on the processing

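No member passed the adjusted threshold under any of 19 alternatives, and H2-K1, H2-D1, Tap1, Tap2, Psmb10 and Nlrc5 kept their sign in all of them. Members higher at an unadjusted p of 0.05 numbered 1 with DESeq2, 1 without the low count filter, 1 with a gene length offset, 1 with WT A and WT B left out together, and from 0 to 3 when single tumours were left out (2 without KO D, 3 without WT A). Of all genes, 1853 of 29531 were higher with DESeq2, 2026 of 29689 without the filter and 1514 of 16527 with the offset. The numbers were 1111 of 17031 without WT A and WT B, 1217 of 16362 without KO D and 1221 of 16717 without WT A. Pathway genes at the adjusted threshold numbered 1 higher and 1 lower with DESeq2, and 0 to 1 higher and 0 to 4 lower with single tumours left out, the highest of both without WT E. At an unadjusted p, pathway genes numbered 3 to 7 higher (7 without WT A) and 2 to 6 lower (2 without WT A or WT B) with single tumours left out, 0 higher and 1 lower with ribosomal RNA share as a covariate, and 2 lower without WT A and WT B. Among all genes 1095 to 2171 were higher and 1607 to 3196 lower with single tumours left out. The covariate gave 722 and 748, and 1263 were lower without WT A and WT B. With a gene length trend removed, the log2 difference was 0.3 for H2-K1/B2m, 0.345 for H2-D1/B2m and -0.079 for Tap1/Tap2, and r with Nlrc5 was 0.791 (B2m), 0.707 (Psmb8), 0.725 (Psmb9) and 0.716 (Psmb10). Leaving out single tumours moved Tap1/Tap2 from -0.151 (without WT C) to 0.125, and r with Nlrc5 from 0.651 to 0.82 (H2-D1), 0.66 to 0.828 (H2-K1), 0.63 to 0.868 (Tap2) and 0.575 to 0.917 (Tapbp). Without KO F or WT B the adjusted p of H2-D1, H2-K1 and Tap2 rose above 0.05, as it did for Tapbp without any tumour other than WT C. Over all genes, DESeq2 called 595 higher and 900 lower, edgeR 3 and 0, and 608 and 1248 without WT E and 203 and 651 without WT D. The causes of these changes were not tested.

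Nothing in the labels ties tumours of the same letter, and same-letter deviations correlated between -0.14 and 0.12. A replicate block over letters A to E gave 3 pathway genes lower at an unadjusted p, beside 1305 of all 16386 genes. At the adjusted threshold it gave 7 of all genes higher and 1 lower (30 and 2 without the block on the same tumours). In the paired form, H2-K1/B2m differed by 0.588 and H2-D1/B2m by 0.609 (exact permutation test, p = 0.0625, the smallest 5 pairs allow). Depth limits only the lowest genes, such as H2-Q2.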
